A study of Mus musculus with 2 samples.

Results

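Integrins are the cell surface receptors by which a cell holds its extracellular matrix, and laminins are the cross-shaped proteins of the basement membrane to which many of them bind. The genes were taken by name, as every entry called *Itga* or *Itgb* with a number or a single letter, or *Lama*, *Lamb* or *Lamc* with a number. This gave 38 of the 21628 entries in the expression table. Of these, 27 encode integrin subunits, 18 of them α and 9 β, and 11 encode laminin chains. 1 laminin entry is not described, and all counts, sums and plots of members cover the other 37 genes. Collagens, among them *Col17a1*, are not members.

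RNAseq was carried out on lingual epithelium of P0 pups, the day of birth, that carry a *Sox2*-GFP reporter (genotype Sox2GFP). The epithelium was pooled, dissociated with enzymes and sorted by FACS into a bright population (GFP-high) and a dim population (GFP-low), with about 100000 cells of each. According to the paper, brightness at this age follows position, with taste buds and their surroundings strongest and the basal layer outside the papillae weakest. Both populations share genotype, age and tissue, the labels name no treatment, and the sort was on reporter brightness, so each is a mixture of cell types. Each population is 1 library, although the columns of the table are named means. No difference below therefore has a replicate behind it, no test was possible and no p is given. The labels state about 75000000 reads per library. Depths chosen so that low values lie near whole reads were about 27000000 for GFP-high and 35000000 for GFP-low, but 1 of 4 subsets of the genes used gave 63500000 for GFP-high. The depth behind the values is therefore uncertain, and no value is given as reads.

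An integrin is a dimer of an α and a β subunit, and the pair decides the ligand. A laminin is a trimer of an α, a β and a γ chain, assembled before it is secreted. In stratified epithelium the basal cells attach by hemidesmosomes, in which the integrin of *Itga6* and *Itgb4* binds a laminin that holds the *Lama3* and *Lamb3* chains, and by focal adhesions, in which *Itgb1* pairs with several α subunits. Cells leave the basement membrane when they differentiate upward, and mesenchyme, nerve and vessel make basement membrane laminins of their own.

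Values are FPKM (fragments per kilobase of transcript, relative to the size of the library), which account for transcript length, so levels can be set side by side between genes. A fold is the ratio of the FPKM of the 2 libraries. A gene is called differentially expressed (DEG) here when it reached 5 FPKM in the population where it was higher and exceeded the other by 1.5-fold or more. The rule involves no test. The study's methods ask for 5 FPKM in each sample, but its named DEGs do not all meet that. Among them are *Shh*, at 20.7 FPKM in GFP-high against 0.84 in GFP-low cells, and *Foxd3*, at 0.12 and 19.0. The most abundant gene of a list is the one of highest mean over both libraries. *Sox2* itself was at 112 FPKM in GFP-high against 59.0 in GFP-low cells, a ratio of 1.90 in the direction of the sort. Epithelial markers were abundant in both libraries, with *Krt5* at 9667 FPKM in GFP-high against 10422 in GFP-low cells and *Krt14* at 6672 and 9635.

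By the DEG rule 9 of the 37 integrin and laminin genes were GFP-low DEGs (24.3%) and 3 were GFP-high DEGs (8.11%). Over all 21590 genes analysed the same rule called 4.44% as GFP-low and 4.72% as GFP-high DEGs. Among genes at 5 FPKM or more in either population it called 8.9% as GFP-low and 9.48% as GFP-high DEGs, beside 9 and 3 of the 22 members at that level. The 9 GFP-low DEGs were *Itga8*, *Itgb3*, *Lama4*, *Itga1*, *Lama2*, *Itga2*, *Lamb1*, *Lamc1* and *Itgb4*, in falling order of fold, and the 3 GFP-high DEGs were *Itga9*, *Itgb5* and *Itga2b*. With 5 FPKM required in both populations, 4 GFP-low DEGs (*Lama4*, *Lamb1*, *Lamc1* and *Itgb4*) and 2 GFP-high DEGs (*Itgb5* and *Itga2b*) remain. By direction alone, 20 of the 37 were higher in GFP-low cells, 16 in GFP-high cells, and 1, *Itgal*, was equal, a split close to that of all genes (9254 and 7883). In bulk RNA, fewer cells of a type and less RNA per cell cannot be told apart, and this holds for each of these differences.

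All 37 genes have a value in both libraries. 17 reached 5 FPKM in GFP-high cells, 21 in GFP-low cells and 16 in both, and 15 were under 5 FPKM in both. Over the 18 with a mean of at least 5 FPKM, the median log2 ratio of GFP-high over GFP-low was -0.30, and 12 of them were higher in GFP-low cells. Of all 10454 genes at that mean, 5780 were higher in GFP-low and 4670 in GFP-high cells. Over the 10453 genes at that mean with a value above 0 in both libraries the median was -0.04, with 90% of the ratios between -0.77 and 0.85. When each library is divided by its FPKM sum (TPM), every log2 ratio falls by 0.10. On that scale GFP-high DEGs make up 40.3% of all DEGs instead of 51.6%, and the members split into 2 GFP-high and 10 GFP-low DEGs, because *Itga2b* drops under 1.5 and *Itga3* passes it. *Itga5* turns from slightly higher to slightly lower in GFP-high cells, and the other 21 members at 5 FPKM or more in either library keep their direction.

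**Figure D1:**
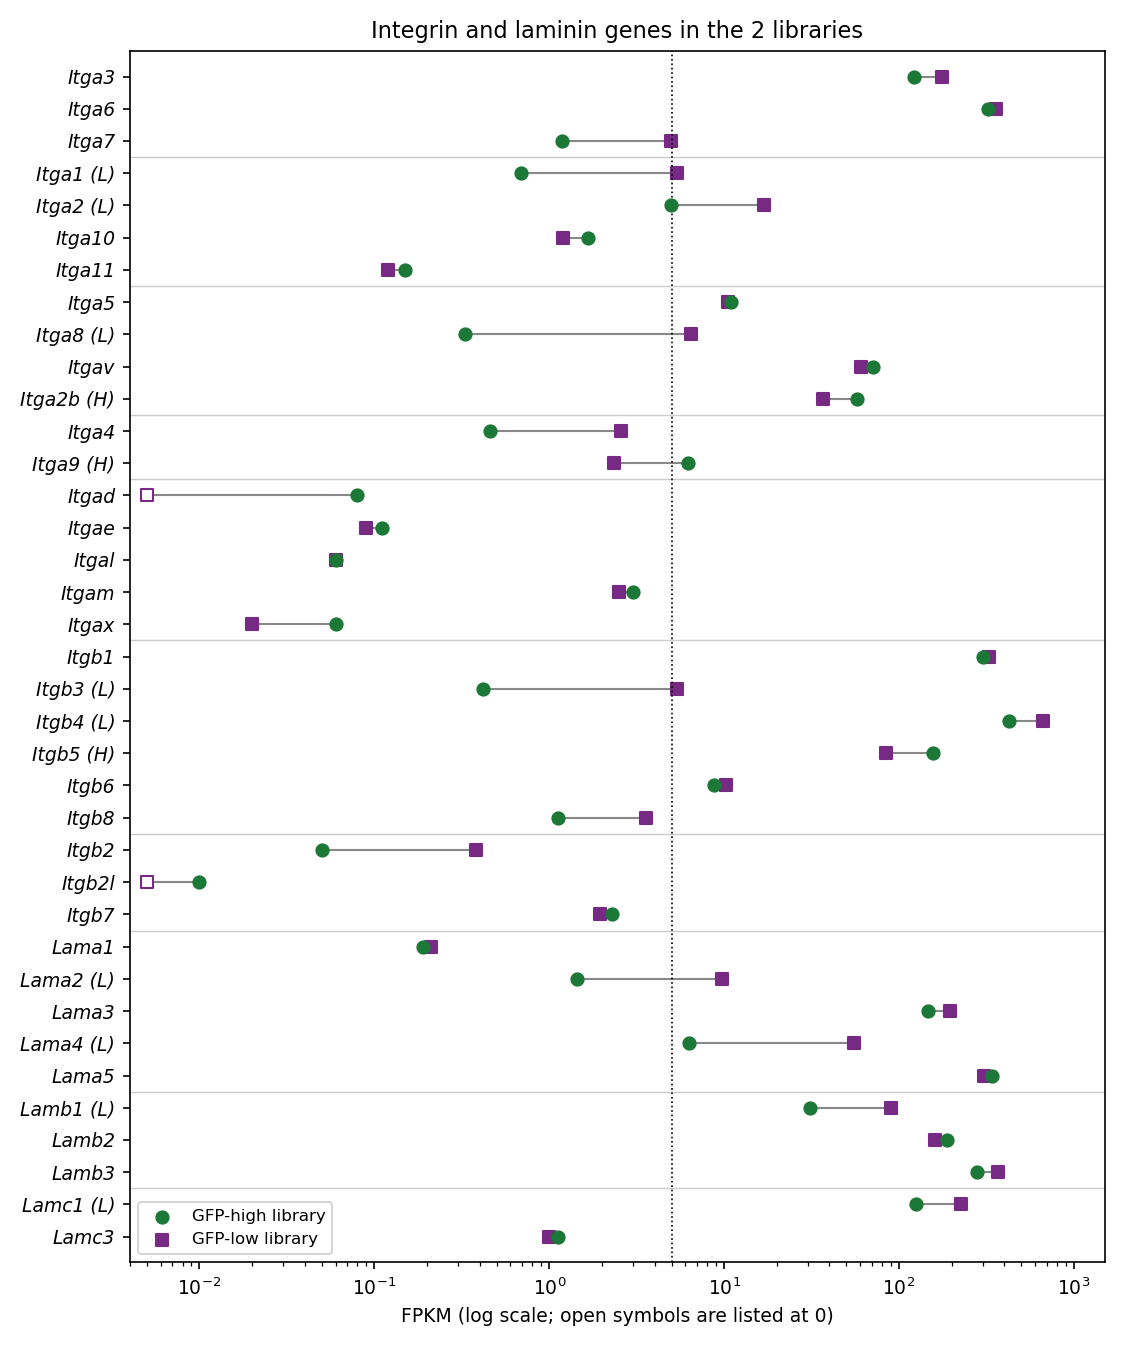
FPKM of the 37 integrin and laminin genes on a log axis, grouped by role, with the GFP-high library as circles and the GFP-low library as squares. (H) and (L) mark the 3 GFP-high and 9 GFP-low DEGs, open symbols at the left edge are values listed at 0, and the dotted line is 5 FPKM. The longest bar among genes that reach 5 FPKM joins the values of *Itga8*, 0.33 and 6.45 FPKM.

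Folds are given here by the level of the gene. The 10 members averaging 100 FPKM or more differed by 1.08-fold to 1.86-fold, with a median of 1.32-fold. The 8 members between 5 and 100 FPKM differed by 1.04-fold to 8.80-fold, with a median of 2.24-fold. Of the 19 members under 5 FPKM, 17 have a fold, and these ran from 1.00 to 19.5 with a median of 2.63, which is 1.21 with a pseudocount of 1. Each of the members that differed by 3-fold or more had a mean under 100 FPKM. Low values carry more counting error.

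**Figure D2:**
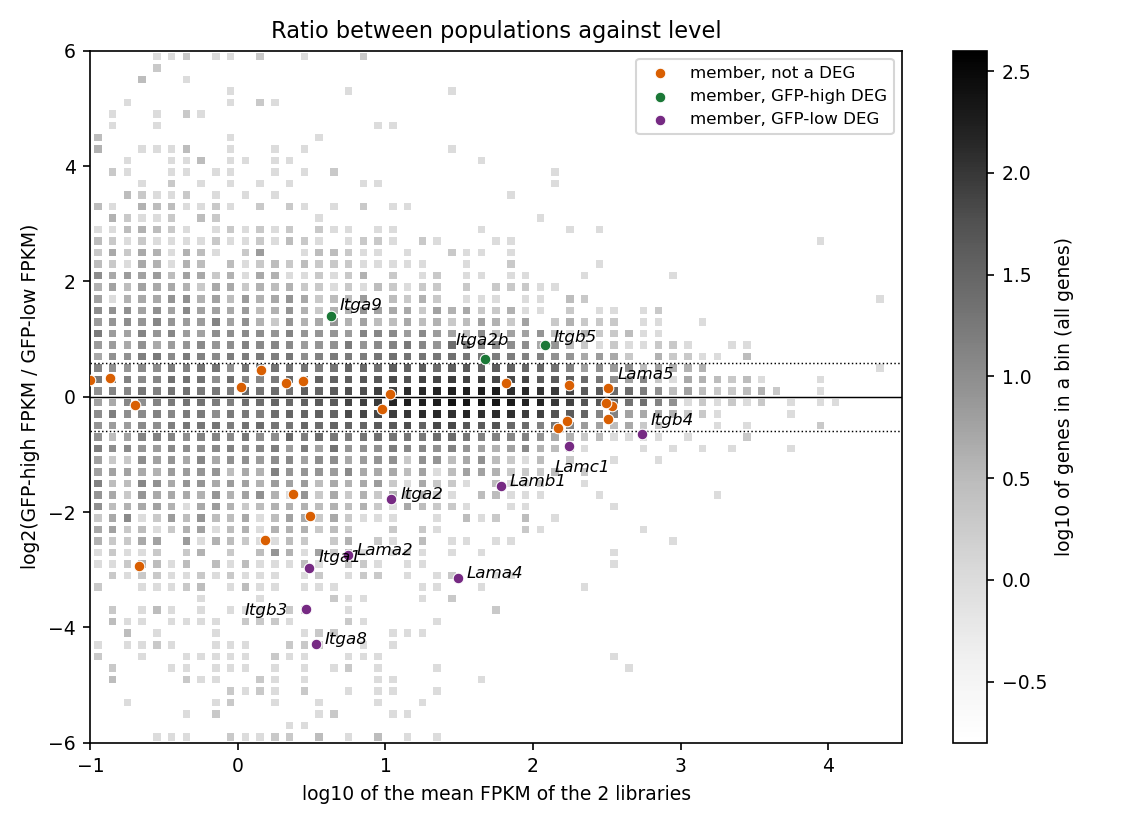
Log2 ratio of GFP-high over GFP-low FPKM against the log10 mean FPKM of the 2 libraries. Grey squares are bins of all genes, darker with more genes and with ratios beyond the axis drawn at its edge, coloured points are integrin and laminin genes with a mean of at least 0.1 FPKM by DEG call, and dotted lines mark 1.5-fold. *Lama4*, at 6.32 and 55.6 FPKM, lies well under the bulk of genes of its level, while *Itga6*, *Itgb1* and *Lama5* lie near 0.

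Of the laminin-binding α subunits, *Itga6* was the most abundant integrin α gene in both libraries. *Itga6* (ENSMUSG00000027111, chr2:71745616-71858416 of mm10, + strand) was at 324 FPKM in GFP-high against 360 in GFP-low cells, 1.11-fold higher in GFP-low. Divided by *Krt14*, *Itga6* was 1.30-fold higher in GFP-high cells, and divided by *Krt5* 1.03-fold higher in GFP-low cells. It made up 53.6% of the summed integrin α FPKM in GFP-high against 52.5% in GFP-low cells. Its share of the α subunits was thus nearly the same in both populations, and 5.31% of the 50-nt windows of its exons also occur in another annotated gene. *Itga3*, whose product pairs with that of *Itgb1* and binds the same epithelial laminin outside hemidesmosomes, was at 121 and 176 FPKM, 1.45-fold higher in GFP-low cells and just short of the DEG rule. The ratio of *Itga6* to *Itga3* was 2.67 in GFP-high against 2.05 in GFP-low cells. *Itga7*, the laminin-binding α subunit of muscle, was at 1.18 FPKM in GFP-high against 4.95 in GFP-low cells. Its fold of 4.19 is 2.73 with a pseudocount of 1, and its level in GFP-low cells lies just under the 5 FPKM that a DEG needs.

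*Itgb4* and *Itgb1* were the most abundant β subunit genes, and *Itgb4* differed while *Itgb1* was near even. *Itgb4* (ENSMUSG00000020758, chr11:115974709-116008412, + strand) encodes the β subunit that pairs with the *Itga6* product in hemidesmosomes. It was at 424 FPKM in GFP-high cells, rank 304 among all genes analysed, and at 664 FPKM in GFP-low cells, rank 149, which is 1.57-fold higher in GFP-low. *Itgb1* (chr8:128685654-128733200, + strand), the common partner of most matrix-binding α subunits, was at 301 and 325 FPKM, 1.08-fold higher in GFP-low cells. The FPKM of *Itgb4* was 1.31 times that of *Itga6* in GFP-high against 1.84 times in GFP-low cells, while the ratio of *Itgb1* to *Itga6* was 0.932 and 0.902. The ratio of *Itgb4* to *Itgb1* was 1.41 in GFP-high against 2.04 in GFP-low cells whatever the scaling of the libraries, while the fold of each gene and the direction of *Itgb1* depend on it. Divided by *Krt14*, *Itgb4* was 1.08-fold higher in GFP-low and *Itgb1* 1.34-fold higher in GFP-high cells, and divided by *Krt5*, *Itgb4* was 1.45-fold higher in GFP-low cells and *Itgb1* even (1.00). Antisense to *Itgb4*, the transcript of B230344G16Rik covers 7.66% of its exon sequence.

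The genes for the partners of this integrin in the hemidesmosome were all modestly higher in GFP-low cells. Of 6 hemidesmosome partners (*Col17a1*, *Plec*, *Dst*, *Cd151*, *Krt5* and *Krt14*), 6 were higher in GFP-low cells and 0 were DEGs, with a median log2 ratio of -0.31. On the TPM scale *Dst* and *Krt14* pass 1.5-fold. *Col17a1*, the transmembrane collagen of the hemidesmosome, was at 1339 and 1740 FPKM, 1.30-fold higher in GFP-low cells. *Krt5* was 1.08-fold and *Krt14* 1.44-fold higher. The marker list of basal keratinocytes (*Krt5*, *Krt14*, *Krt15*, *Trp63*, *Col17a1* and *Dst*), which shares 4 genes with the hemidesmosome partners, summed to 25280 FPKM in GFP-high against 32267 in GFP-low cells. All 6 were higher in GFP-low cells, and none passed 1.5-fold in FPKM. The suprabasal keratinocyte list of 8 genes summed to 73332 and 32582 FPKM, with 5 GFP-high DEGs, no GFP-low DEG and *Krtdap* as its most abundant gene by the mean of the libraries. The part of these markers in the values of the attachment genes was not tested.

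*Itgb5* was the abundant integrin gene that leaned the other way. *Itgb5* (ENSMUSG00000022817, chr16:33829665-33949338, + strand) encodes a β subunit that pairs with the *Itgav* product and binds vitronectin. It was at 156 FPKM in GFP-high against 83.9 in GFP-low cells, 1.86-fold higher in GFP-high, and 95.4% of expressed genes had a lower ratio. Its rank among all genes was 1097 in GFP-high against 2329 in GFP-low cells. It supplied 17.4% of the summed integrin β FPKM in GFP-high against 7.67% in GFP-low cells, while *Itgb4* supplied 47.4% and 60.7%. Against *Itgb1*, *Itgb5* stood at 0.517 in GFP-high against 0.258 in GFP-low cells. *Itgav* (chr2:83724397-83806916, + strand), the only α partner known for the *Itgb5* product, was at 70.9 and 60.3 FPKM, 1.18-fold higher in GFP-high cells. The partners thus leaned the same way and by different amounts, and the ratio of *Itgb5* to *Itgav* was 2.2 in GFP-high against 1.39 in GFP-low cells. Of the 50-nt windows of *Itgb5* exons, 7.25% also occur in another annotated gene.

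The 250 bases before the annotated start of *Itgb5* and of *Itgav* (RefSeq, GRCm38.p6) are shown because the genes encode the partners of 1 receptor. The windows are chr16:33829415-33829664 and chr2:83724147-83724396, both on the + strand, and neither holds an annotated exon. Capitals mark matches on either strand to GGGCGG, a motif bound by SP factors, or to CACCTG, an E-box.
Itgb5: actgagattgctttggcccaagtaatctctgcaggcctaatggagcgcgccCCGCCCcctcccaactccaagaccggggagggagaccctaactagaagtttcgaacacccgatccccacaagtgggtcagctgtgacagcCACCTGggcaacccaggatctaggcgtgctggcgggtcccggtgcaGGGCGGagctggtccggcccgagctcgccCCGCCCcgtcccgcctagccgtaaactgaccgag
Itgav: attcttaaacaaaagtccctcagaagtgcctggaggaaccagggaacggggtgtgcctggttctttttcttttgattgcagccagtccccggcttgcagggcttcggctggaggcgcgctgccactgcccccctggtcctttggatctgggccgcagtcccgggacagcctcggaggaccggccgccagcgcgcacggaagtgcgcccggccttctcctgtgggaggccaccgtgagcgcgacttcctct
The *Itgb5* window holds 4 matches and has a GC content of 65.2% with 18 CpG, and the *Itgav* window has no match, 64.4% GC and 18 CpG. Both are richer in GC than the median of 52.4% over all 32817 windows of the table.

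The promoter table holds 24 of the 37 genes, with 27 windows. *Itga6*, *Itga7*, *Itgad*, *Itgae*, *Itgal*, *Itgb2*, *Itgb3*, *Itgb4*, *Lama1*, *Lama3*, *Lama4*, *Lamc1* and *Lamc3* are not in it. GGGCGG was found in 9 of the 27 member windows and in 32.7% of all windows, and CACCTG in 8 of 27 and 17.2%. ACAANG, the core of SOX factor sites, was found in 8 of 27 and 36.3%, and TGANTCA, the AP-1 motif, in 1 of 27 and 6.75%. TGTTTAC of forkhead factors, GACCACCCA of GLI factors and TATAAA were in 0 of 27, beside 3.16%, 0.225% and 12.4% of all windows. Both strands were searched throughout. A match is a description of letters and marks no site of binding, and a window without one says nothing of a factor.

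The remaining β subunits that partner *Itgav* products were low. *Itgb6*, an epithelial β subunit known for activating latent TGF-β, was at 8.76 FPKM in GFP-high against 10.2 in GFP-low cells, 1.16-fold higher in GFP-low. *Itgb8*, which also binds latent TGF-β, was at 1.12 and 3.59 FPKM, 3.21-fold higher in GFP-low cells and under 5 FPKM in both. *Itgb3* (chr11:104608000-104670476, + strand), the β subunit of platelets, osteoclasts and angiogenic vessels, was at 0.42 and 5.40 FPKM, 12.9-fold higher in GFP-low cells. With a pseudocount of 1 the fold of *Itgb3* is 4.51.

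*Itga2b*, known as the platelet α subunit that pairs with the *Itgb3* product, was far more abundant than that partner. *Itga2b* (ENSMUSG00000034664, chr11:102453297-102470122, - strand) was at 57.7 FPKM in GFP-high against 36.6 in GFP-low cells, a ratio of 1.57, which is under 1.5 on the TPM scale. It stood at 137 times the level of *Itgb3* in GFP-high against 6.78 times in GFP-low cells. The 2 genes therefore differed between the populations in opposite directions. Markers of platelets and megakaryocytes were low in both libraries. The 7 genes of that list summed to 12.2 FPKM in GFP-high against 8.85 in GFP-low cells. The part of these cells in the value of *Itga2b* was not tested. The most abundant of the list, *Gp1bb*, was at 10.04 and 5.54 FPKM and was its single DEG, *Pf4* was at 1.54 and 2.6 FPKM, and *Gp9* was listed at 0 in both.

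Among the other RGD-binding α subunits, *Itga5*, the fibronectin receptor subunit, was at 10.9 FPKM in GFP-high against 10.5 in GFP-low cells and changes side with the scale. *Itga8* (ENSMUSG00000026768, chr2:12106632-12301922, - strand), a receptor subunit for nephronectin known from mesenchymal cells, was at 0.33 and 6.45 FPKM, 19.5-fold higher in GFP-low cells. This was the largest fold of the 35 members with a value above 0 in both libraries when no pseudocount is added, but with a pseudocount of 1 it is 5.60-fold, less than the 7.73-fold of *Lama4*. An antisense transcript covers 5.05% of its exon sequence. *Itga9* (chr9:118606690-118901003, + strand), a subunit that pairs with the *Itgb1* product and binds tenascin-C, was at 6.19 and 2.35 FPKM. It was 2.63-fold higher in GFP-high cells, the largest fold of the 3 GFP-high DEGs and the lowest level among them. Its relative *Itga4*, found on leukocytes and neural crest, was at 0.46 and 2.58 FPKM, 5.61-fold higher in GFP-low cells. It reached 5 FPKM in neither, and with a pseudocount of 1 its fold is 2.45.

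The collagen-binding α subunits split by level. *Itga2* (chr13:114833081-114932100, - strand), the subunit that keratinocytes use on collagen, was at 4.98 FPKM in GFP-high against 16.9 in GFP-low cells, 3.40-fold higher in GFP-low. *Itga1* (chr13:114953096-115101964, - strand), the corresponding subunit of many mesenchymal cells, was at 0.69 and 5.39 FPKM, 7.81-fold higher in GFP-low cells. With a pseudocount of 1 the fold of *Itga1* is 3.78. The 2 genes lie 20995 bp apart on the same strand with 0 protein-coding genes between them, and both were GFP-low DEGs. *Itga10* was at 1.66 and 1.20 FPKM and *Itga11* at 0.15 and 0.12 FPKM. The value of *Itga10* is uncertain, since 30.6% of the 50-nt windows of its exons also occur in another annotated gene.

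The windows before *Itga1* (chr13:115101965-115102214) and *Itga2* (chr13:114932101-114932350) are shown because these neighbours were both GFP-low DEGs. Both are on the - strand and hold no annotated exon, and no searched motif matched, so no letter is in capitals.
Itga1: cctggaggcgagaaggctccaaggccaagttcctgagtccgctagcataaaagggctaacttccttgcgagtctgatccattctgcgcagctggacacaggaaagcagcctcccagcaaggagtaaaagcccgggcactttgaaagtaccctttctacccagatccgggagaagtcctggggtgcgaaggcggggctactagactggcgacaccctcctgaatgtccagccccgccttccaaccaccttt
Itga2: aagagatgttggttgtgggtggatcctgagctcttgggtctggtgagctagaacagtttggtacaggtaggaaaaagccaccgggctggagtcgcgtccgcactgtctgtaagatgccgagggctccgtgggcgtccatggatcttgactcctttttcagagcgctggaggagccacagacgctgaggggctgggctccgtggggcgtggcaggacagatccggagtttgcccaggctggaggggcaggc
Their GC content was 57.6% and 60.8%, with 10 and 12 CpG, beside a median of 57.6% over the member windows.

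Integrins of leukocytes were low in both populations. *Itgae* was at 0.11 and 0.09 FPKM, *Itgal* at 0.06 in both and *Itgax* at 0.06 and 0.02, and *Itgad* was at 0.08 FPKM in GFP-high cells and listed at 0 in GFP-low cells. *Itgb2*, the β subunit these genes share for the most part, was at 0.05 and 0.38 FPKM, 7.60-fold higher in GFP-low cells and 1.31-fold with a pseudocount of 1. *Itgb2l* was at 0.01 FPKM in GFP-high cells and listed at 0 in GFP-low cells. *Itgam* was at 3.01 and 2.49 FPKM and *Itgb7* at 2.29 and 1.94 FPKM. *Itgam* shares 66.3% of its 50-nt windows with another annotated gene and *Itgad* 13.5%, so these values cannot be assigned to 1 gene with certainty. The leukocyte and macrophage list, with 10 genes in the table, summed to 20.2 FPKM in GFP-high against 21.6 in GFP-low cells, with 0 DEGs. *Cd68* made up most of it at 14.03 and 15.28 FPKM, while *Ptprc*, which defines leukocytes, was at 0.06 and 0.02 FPKM and *Cd3e* was listed at 0 in GFP-high cells. The 7 mast cell genes summed to 63.6 and 32.0 FPKM with 3 GFP-high DEGs, and *Kit* was the most abundant.

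Most laminin genes were higher in GFP-low cells. Of the 10 described, 7 were higher there, 4 were GFP-low DEGs and 0 were GFP-high DEGs. Over all genes analysed, 9254 were higher in GFP-low and 7883 in GFP-high cells. Among genes at 5 FPKM or more in either population, 8.9% were GFP-low and 9.48% GFP-high DEGs. Summed α chains were at 496 FPKM in GFP-high against 568 in GFP-low cells, 1.15-fold higher in GFP-low, and summed β chains at 499 and 618 FPKM, 1.24-fold higher. A trimer takes 1 chain of each class, and the ratio of β to α was 1.01 and 1.09. The 27 integrin genes summed to 1498 and 1780 FPKM, 1.19-fold higher in GFP-low cells. Laminin α and β chains and integrins thus leaned to the same side by similar amounts as sums.

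**Figure D3:**
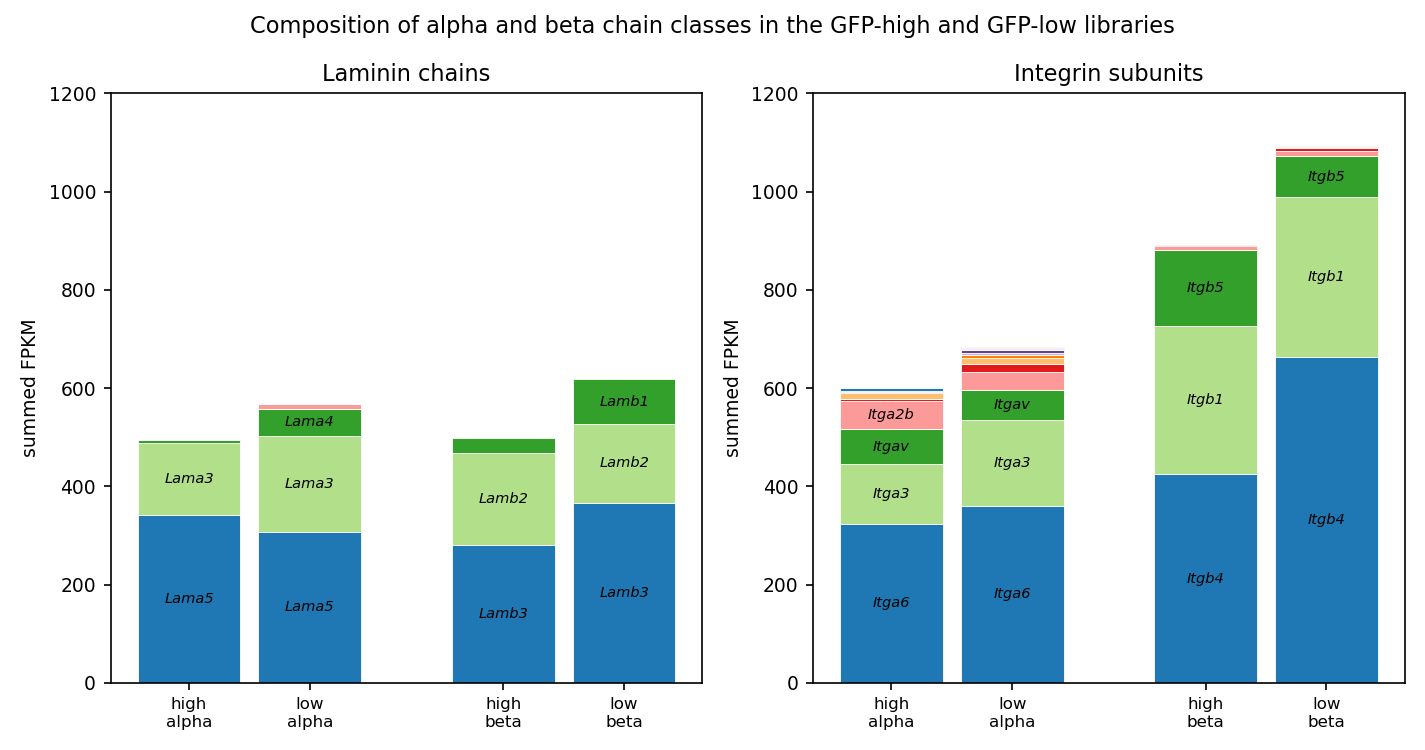
Summed FPKM of laminin α and β chains (left) and of integrin α and β subunits (right) in the GFP-high and GFP-low libraries, as stacked bars from 0 split by gene. All 4 classes are taller in GFP-low cells, *Lama4* and *Lamb1* take larger slices there, and *Itgb5* takes a larger slice of the β subunits in GFP-high cells.

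Among the laminin α chains, *Lama5* led in both libraries. *Lama5* (ENSMUSG00000015647, chr2:180176373-180225859, - strand), the α chain found in most epithelial basement membranes, was at 342 FPKM in GFP-high against 307 in GFP-low cells, 1.11-fold higher in GFP-high. It held 68.9% of the summed α chains in GFP-high against 54.0% in GFP-low cells. *Lama3* (chr18:12333819-12583013, + strand), the α chain that hemidesmosomes bind, was at 146 and 196 FPKM, 1.34-fold higher in GFP-low cells. Divided by *Krt14*, *Lama3* was 1.08-fold higher in GFP-high cells, and divided by *Krt5* 1.25-fold higher in GFP-low cells. The ratio of *Lama5* to *Lama3* was 2.34 in GFP-high against 1.56 in GFP-low cells. *Lama1*, the α chain of the early embryo, was at 0.19 and 0.21 FPKM.

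*Lama4* and *Lama2* differed most among the α chains. *Lama4* (ENSMUSG00000019846, chr10:38965515-39110188, + strand), the chain of vessel and peripheral nerve basement membranes, was at 6.32 FPKM in GFP-high against 55.6 in GFP-low cells. It was 8.80-fold higher in GFP-low cells, a ratio of GFP-high over GFP-low that was lower in 0.469% of expressed genes. The share of *Lama4* among the α chains was 1.28% in GFP-high against 9.78% in GFP-low cells. *Lama2* (ENSMUSG00000019899, chr10:26980036-27619758, - strand), the chain of muscle fibres and Schwann cells, was at 1.45 and 9.72 FPKM, 6.70-fold higher in GFP-low cells. With a pseudocount of 1 the fold of *Lama2* is 4.38. The endothelial marker list, given below, had its higher sum in GFP-high cells, with 8 of its 10 genes under 5 FPKM in both libraries. The part of vessel, nerve or muscle cells in the values of *Lama4* and *Lama2* was not tested. *Lama5* stood at 54.1 times the level of *Lama4* in GFP-high against 5.52 times in GFP-low cells.

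The windows before *Lama5* (chr2:180225860-180226109, - strand) and *Lama2* (chr10:27616943-27617192, - strand) are shown as those of an epithelial and a mesenchymal α chain. In FPKM *Lama5* was near even between the libraries, and *Lama2* was higher in GFP-low cells. The *Lama2* window lies inside the annotated span of the gene but in no exon, and the *Lama5* window lies before its gene. Capitals mark GGGCGG and CACCTG on either strand, and no matches overlap.
Lama5: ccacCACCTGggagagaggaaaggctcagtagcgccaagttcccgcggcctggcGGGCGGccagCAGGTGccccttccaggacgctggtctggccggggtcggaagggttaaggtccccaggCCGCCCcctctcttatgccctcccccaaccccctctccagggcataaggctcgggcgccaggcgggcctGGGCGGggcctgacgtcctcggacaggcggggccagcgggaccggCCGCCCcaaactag
Lama2: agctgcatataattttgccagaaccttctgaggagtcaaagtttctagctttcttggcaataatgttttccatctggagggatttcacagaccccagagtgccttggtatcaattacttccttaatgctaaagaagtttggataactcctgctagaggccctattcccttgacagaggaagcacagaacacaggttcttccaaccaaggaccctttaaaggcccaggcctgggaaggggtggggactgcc
The *Lama5* window holds 6 matches, 72.4% GC and 19 CpG, and the *Lama2* window 0 matches, 47.2% GC and 0 CpG.

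The β chains showed a similar contrast. *Lamb3* (chr1:193207699-193343878, + strand), the β chain of the hemidesmosome laminin, was at 280 FPKM in GFP-high against 366 in GFP-low cells, 1.31-fold higher in GFP-low. Divided by *Krt14*, *Lamb3* was 1.11-fold higher in GFP-high cells, and divided by *Krt5* 1.21-fold higher in GFP-low cells. *Lamb2* (chr9:108479736-108490530, + strand) was at 187 and 162 FPKM, 1.16-fold higher in GFP-high cells. *Lamb1* (ENSMUSG00000002900, chr12:31265234-31329644, + strand), the widespread β chain of embryonic basement membranes, was at 31.01 and 90.31 FPKM, 2.91-fold higher in GFP-low cells. The exchangeable chains *Lamb2* and *Lamb1* thus differed in opposite directions, and their ratio was 6.04 in GFP-high against 1.79 in GFP-low cells. *Lamb1* made up 6.22% of the β chains in GFP-high against 14.6% in GFP-low cells, while *Lamb3* held 56.2% and 59.2%.

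Of the γ chains described, *Lamc1* was abundant and *Lamc3* was low. *Lamc1* (ENSMUSG00000026478, chr1:153218922-153332786, - strand), the γ chain of most laminins, was at 125 FPKM, rank 1445, in the GFP-high library and at 226 FPKM, rank 650, in the GFP-low library. It was 1.81-fold higher in GFP-low cells, and 4.34% of expressed genes had a lower ratio. *Lamc3* was at 1.12 and 0.99 FPKM. Of the hemidesmosome laminin, the ratio of *Lama3* to *Lamb3* was 0.521 and 0.536, nearly the same in both libraries.

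The other components of the basement membrane leaned to GFP-low cells as the laminins did, whose median log2 ratio was -0.64 over the 8 described with a mean of 5 FPKM or more. Of 20 such genes, 19 were higher in GFP-low cells, 13 were GFP-low DEGs and 1 was a GFP-high DEG, with a median log2 ratio of -0.88 and sums of 1389 and 2524 FPKM. The general shares at 5 FPKM or more, 8.9% GFP-low and 9.48% GFP-high DEGs, stand beside the counts of every partner and marker list. Nidogens, which link laminin to collagen IV, had the largest folds with *Col15a1*. *Nid2* was at 2.10 FPKM in GFP-high against 36.1 in GFP-low cells, *Nid1* at 5.69 and 49.7, and *Col15a1*, a collagen of vessel and nerve basement membranes, at 14.5 and 124. The exception was *Smoc2*, a matricellular calcium-binding protein, at 119 and 25.6 FPKM. The most abundant were *Col7a1* of the anchoring fibrils, at 356 and 578 FPKM, the proteoglycan *Agrn*, at 315 and 446, and *Col18a1*, at 233 and 382.

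Of 4 laminin receptors that are not integrins, 3 were higher in GFP-low cells and 1, *Sdc1*, was a GFP-high DEG, with a median log2 ratio of -0.33. *Sdc1*, the syndecan of stratified epithelium, was at 1030 FPKM in GFP-high against 565 in GFP-low cells. *Bcam*, which binds the *Lama5* chain, was at 782 and 985 FPKM and *Sdc4* at 205 and 257. *Lama5*, the gene for the ligand chain of *Bcam*, was near even, at 1.11-fold higher in GFP-high cells and 1.04-fold on the TPM scale.

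Adaptors that join integrins to actin leaned modestly to GFP-low cells. Of 27 in the table, 20 were higher in GFP-low and 7 in GFP-high cells, with 8 GFP-low DEGs, 1 GFP-high DEG and a median log2 ratio of -0.31. *Pxn*, which encodes the scaffold paxillin, was at 84.0 FPKM in GFP-high against 155 in GFP-low cells. *Fermt2*, a kindlin that activates integrins, was at 10.9 and 22.4, and *Parvg* at 2.17 and 5.60. The GFP-high DEG was *Bcar1*, a scaffold phosphorylated on adhesion, at 36.4 and 20.9 FPKM. The most abundant adaptors, *Actn4* at 942 and 989 FPKM, *Flna* at 804 and 1022 and *Tns4* at 144 and 224, encode actin-binding or focal adhesion proteins.

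Among 18 other ligands of integrins, 11 were higher in GFP-low and 7 in GFP-high cells, 2 of which, *Mfge8* and *Tgfb1*, turn on the TPM scale. The list held 5 GFP-low DEGs and 0 GFP-high DEGs, and its median log2 ratio was -0.53. *Postn*, a ligand of *Itgav* integrins made by fibroblasts, was at 41.6 FPKM in GFP-high against 436 in GFP-low cells. *Col1a2* was at 33.2 and 167 FPKM and *Col3a1* at 193 and 966. *Cdh1*, the epithelial cadherin that the leukocyte integrin of *Itgae* binds, was at 382 and 309 FPKM.

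**Figure D4:**
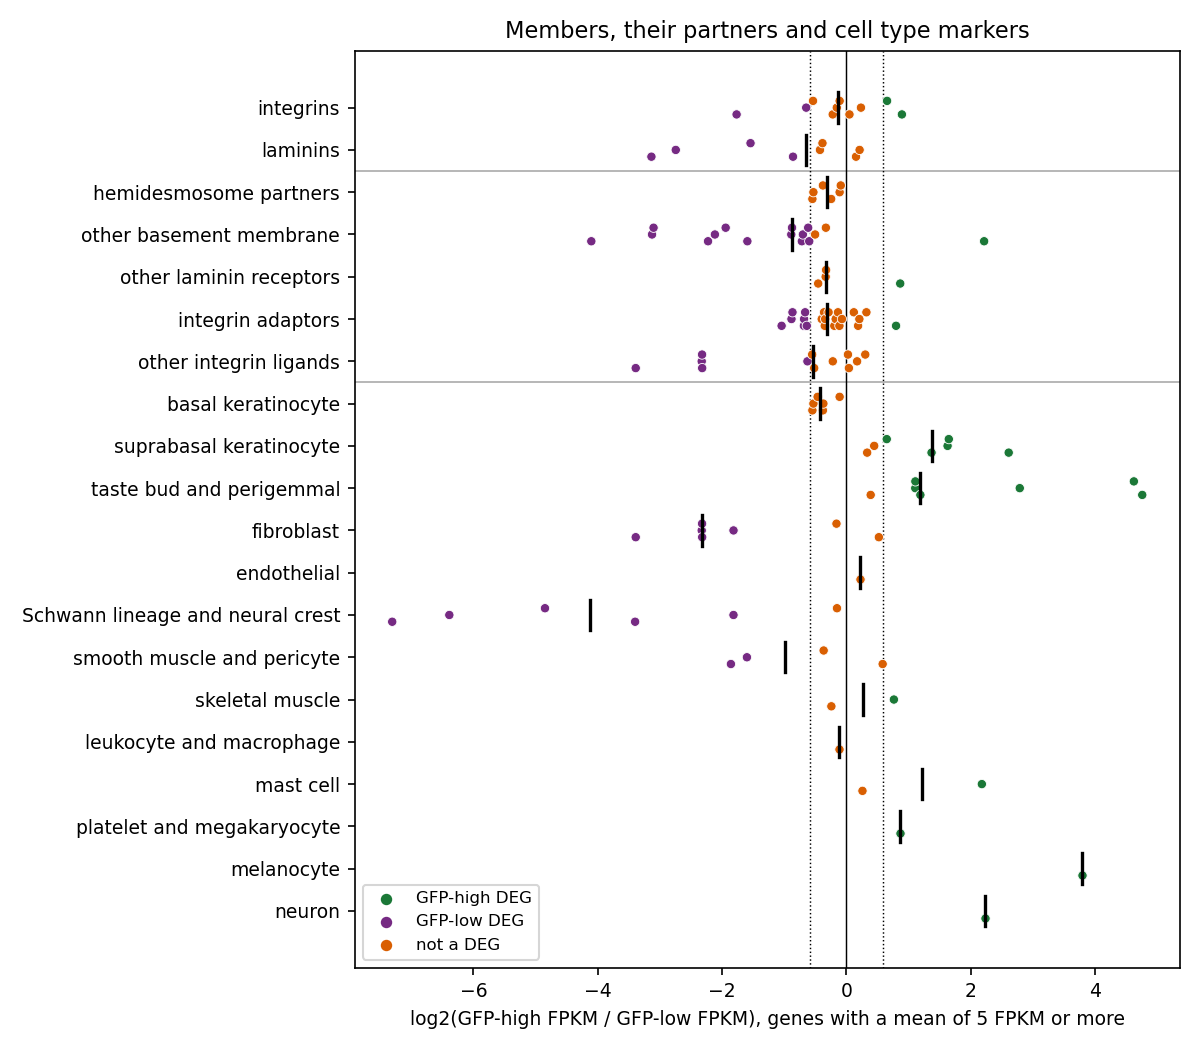
Log2 ratio of GFP-high over GFP-low FPKM for integrins, laminins, partner lists and cell type marker lists, for genes with a mean of at least 5 FPKM. Points are genes coloured by DEG call, black bars are medians and dotted lines mark 1.5-fold. Schwann and fibroblast markers lie far to the left with medians of -4.12 and -2.32, and hemidesmosome partners lie between the dotted lines.

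The summed fibroblast, Schwann lineage and smooth muscle markers were higher on the same side as *Lama4*, *Lama2*, *Lamb1*, *Itga8*, *Itga1* and *Itgb3*. The leukocyte and macrophage list given above leaned there slightly, at 20.2 and 21.6 FPKM. The paper counts *Itga8* among the epithelial markers of its GFP-low DEGs. The 11 fibroblast genes summed to 607 FPKM in GFP-high against 2389 in GFP-low cells, 3.93-fold higher in GFP-low, with 6 GFP-low DEGs, 0 GFP-high DEGs and *Col3a1* as the most abundant. 9 of the 11 were higher in GFP-low cells, while *Twist2* (2.27 and 0.5 FPKM) and *Col6a2* (86.8 and 60.4) were higher in GFP-high cells. 4 of the 11 are also among the integrin ligands. The 7 Schwann lineage and neural crest genes summed to 73.0 and 216 FPKM, 2.96-fold higher in GFP-low cells, with 5 GFP-low DEGs. *Erbb3* was the most abundant at 60.3 and 66.9 FPKM, while *Sox10*, which defines the lineage, was at 0.51 and 42.7. The 8 smooth muscle and pericyte genes summed to 115 and 165 FPKM, with 3 GFP-low DEGs. 7 of the 8 were higher in GFP-low cells, and the most abundant, *Notch3* (57.04 and 38.05 FPKM), was higher in GFP-high cells. None of the fibroblast, Schwann lineage and smooth muscle genes was at 0 in either library. The part of these cell types in the values of the 6 integrin and laminin genes was not tested.

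8 marker lists had the higher sum in GFP-high cells, the side of *Itgb5*, *Itga9* and *Itga2b*, and their part in those values was not tested. The suprabasal keratinocyte, mast cell and platelet lists are given above. The 10 endothelial genes summed to 42.6 FPKM in GFP-high against 30.5 in GFP-low cells, with 1 GFP-high DEG, and the most abundant, *Egfl7*, was at 18.5 and 15.9. The 8 skeletal muscle genes summed to 20.4 and 18.4 FPKM, with 1 GFP-high DEG, *Tnnt3* (8.58 and 5.05 FPKM). *Acta1* (7.25 and 8.57 FPKM), the most abundant by the mean of the libraries, *Des* and *Myh3* were higher in GFP-low cells. The other 5 were higher in GFP-high cells. The 8 taste bud and perigemmal genes summed to 510 and 244 FPKM, with 7 GFP-high DEGs, 0 GFP-low DEGs and *Krt7* as the most abundant. The 6 melanocyte genes summed to 18.5 and 3.91 FPKM, of which *Mitf*, the most abundant, gave 17.2 and 1.24, with 1 GFP-high DEG and *Tyr* at 0 in both libraries. *Mitf* and *Pmel* were higher in GFP-high cells, and *Dct*, *Tyrp1* and *Mlana*, under 1 FPKM in both, were higher in GFP-low cells. The 4 neuron genes in the table summed to 11.3 and 3.79 FPKM, with 1 GFP-high DEG, *Stmn2*, the most abundant at 10.4 and 2.22. *Prph* (0.38 and 1.42 FPKM) was higher in GFP-low cells. The sums of the skeletal muscle, platelet, melanocyte and neuron lists each lean to GFP-high cells through a single gene. Without *Tnnt3*, *Gp1bb*, *Mitf* and *Stmn2*, in that order, these sums are higher in GFP-low cells.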

How the data were processed

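Stranded poly(A) libraries were sequenced as single-end reads of 50 nt, 1 library from GFP-high and 1 from GFP-low cells. According to the submitters' processing notes, reads were trimmed with Trimmomatic 0.36 and mapped to mm10 with GSNAP, and the authors deposited FPKM from Cufflinks 2.2.1, rounded to 2 decimals. The table also holds the authors' own fold column, which was not used. Of 21628 entries, 21 that GENCODE M21 (Ensembl 96) types as other than protein-coding and 17 without a number in a library were left out, leaving 21590. *Tns2*, *Adgre1* and *Tubb3* are not in the table.

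Ratios, sums, shares and medians were computed with Python 3.11.15, pandas 2.3.3 and numpy 2.4.6, and plotted with matplotlib 3.10.9. The code of the DEG calls was run on simulated data, which does not measure variation between animals or sorts. No pseudocount was used, and no fold was taken against 0. A gene counted as expressed had a mean of at least 5 FPKM over the libraries. Depth was estimated from low FPKM of genes with 1 annotated transcript, as FPKM times the exon length less 200 nt. At the depth chosen to put most values near whole reads, 53.8% of 277 GFP-high values and 51.9% of 237 GFP-low values lay within 0.15 of a whole read. That share is a maximum over depths and so has no simple reference. The procedure was settled after the values were seen, as was its repeat on alternate genes, taken in table order and in order of gene ID. The 4 subsets gave GFP-high depths of 27250000 to 63500000 and GFP-low depths of 32250000 to 35750000. Reads were not recovered as counts or tested. The share of 50-nt exon windows found in another annotated gene was computed on mm10, and promoter windows came from RefSeq (GRCm38.p6).

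Members are named by role, each with both values, and 1 laminin entry and 1 Schwann lineage marker were left out of all counts of members and lists. In each partner list, genes named with values are up to 3 DEGs of largest fold in each direction and the 3 of highest mean. The members and lists were chosen with earlier results of these data known. The alternatives were other FPKM and fold minimums, pseudocounts of 1 and 0.1, TPM, and scaling by the median ratio.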

Additional observations from a re-analysis of the deposited data

How the results depend on the processing

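With 1 library per population, no library could be left out and no paired analysis was possible. The 3 GFP-high DEGs among the integrin and laminin genes became 1 (*Itga9*) with a 2-fold minimum. With 5 FPKM required in both populations, or with a minimum of 10 FPKM, *Itga9* lost its call and 2 remained. The 9 GFP-low DEGs became 4 when 5 FPKM was required in both populations and 5 with a minimum of 10 FPKM, because *Itga8*, *Itgb3*, *Itga1* and *Lama2* are under 10 FPKM in GFP-low cells and, like *Itga2*, under 5 in GFP-high cells. With a 2-fold minimum *Itgb4* and *Lamc1* lost theirs and 7 remained. With a minimum of 1 FPKM there were 12, adding *Itga4*, *Itga7* and *Itgb8*. The median log2 ratio of -0.30 became -0.19 with 5 FPKM in both populations, which leaves out *Itga2* and *Lama2*, -0.15 with no minimum, -0.38 with a minimum of 1 FPKM and -0.40 on the TPM scale.

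Over all genes, the 1020 GFP-high DEGs became 1540 with a minimum of 1 FPKM, 2541 with none and 448 with a 2-fold minimum. The 958 GFP-low DEGs became 1563, 2483 and 467, and 633 with 5 FPKM in both populations. The 22 members at 5 FPKM or more in either population kept their calls with pseudocounts of 1 and 0.1 and with scaling by the median ratio (0.973), but a pseudocount of 1 lowers the folds of low genes, *Itga8* from 19.5 to 5.60, *Itgb3* from 12.9 to 4.51, *Itga1* from 7.81 to 3.78 and *Lama2* from 6.70 to 4.38. On the TPM scale 20 did, *Itga2b* lost its call and *Itga3* gained one. In the partner and marker lists, *Dst*, *Krt14*, *Agrn*, *Fbn1* and *Icam1* become GFP-low DEGs on that scale, and *Sbsn* and *Pecam1* lose their GFP-high call. These list calls, folds by level with a pseudocount, and division by *Krt14* or *Krt5*, computed for 9 members, were added after the data were seen. By *Krt14*, *Itgb4* (1.08-fold) and *Lamc1* (1.26-fold) fell under 1.5-fold, and *Itga6*, *Itgb1*, *Lama3* and *Lamb3* turned higher in GFP-high cells, where *Lama5* passed 1.5-fold at 1.61. By *Krt5*, *Lamc1* stayed over 1.5-fold at 1.68 and *Itgb4* fell under it at 1.45. Without replicates, variation between animals and between sorts cannot be told apart from the difference between populations. The FPKM annotation release is not stated, so positions and exon lengths may differ from those behind the values.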

Other observations

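4 genes have names that begin like those of integrins but do not encode subunits. *Itgb1bp1*, which encodes a protein that binds the tail of the *Itgb1* product, was at 50.1 FPKM in GFP-high against 44.0 in GFP-low cells. Another entry of *Itgb1bp1* was listed at 0 in both. *Itgb3bp* was at 15.9 and 16.0 FPKM. *Itgb1bp2*, the muscle protein melusin, was at 3.20 and 5.96 FPKM and passed the GFP-low DEG rule at 1.86-fold. *Itgbl1* was at 0.07 and 0.21 FPKM. Their values had been seen when they were chosen.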
